A study of Caenorhabditis elegans with 6 samples.

Results

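The 3 wild-type arrays of a 6-array series on Caenorhabditis elegans are described here, chosen by the genotype that the labels give them. They hold the transcript levels of whole worms of wild-type genotype that ate bacteria of the control RNAi culture, were synchronized by bleaching, grew in liquid and were labelled as L4, the last larval stage. The other 3 arrays hold zip-3(gk3164) mutants raised the same way and are not described. Each array was made from RNA of whole worms pooled from a culture, and the labels call the 3 arrays biological replicates without saying whether their cultures were separate, so the spread given below may be partly technical. zip-3, the bZIP transcription factor gene that the study is about, had a signal of 1204, 1113 and 939.6 in wild-type arrays 1, 2 and 3. Its mean lay at the 86.1 percentile of all genes.

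In its last larval stage the hermaphrodite finishes its vulva and uterus, its gonad switches from making sperm to making oocytes, and its epidermis secretes the cuticle of the adult under that of the larva. The cuticle is built mostly of collagens, which are transcribed in a burst around each moult, and the lining of the pharynx is renewed in the same cycle. Yolk proteins, made by the intestine for the oocytes, are known from late larvae and adults. A whole-worm array reads all of these tissues at once, so fewer cells of a type and less RNA per cell cannot be told apart.

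The values are MAS5 signals on a linear scale, and all 3 arrays had been scaled to the same trimmed mean of 500.2. Leaving out controls, the array held 22548 probe sets; 20766 of them were annotated to 1 gene, and they covered 17118 genes. A gene was represented by its brightest probe set, and its rank among the 17118 genes is given as a percentile, at which the median of all genes is 50.0. No detection calls were used here, so genes were compared between arrays where their mean log2 signal over the 3 arrays was at least that of a signal of 65.7, and 10400 genes (60.8%) passed this filter. Signals of different probe sets also depend on their probes: for the 2981 genes with several probe sets, the brightest exceeded the dimmest by a median of 2.33-fold, and for 903 of them (30.3%) by 4-fold or more. The order of genes given below is therefore one of probe set brightness, and no test was made between genes. All wild-type arrays belong to 1 group, so differences between them are described without p-values, and their number limits the precision of every value.

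Ribosomal protein genes, cuticle collagens, major sperm protein genes and yolk protein genes were the brightest genes of the wild-type worms. Of the 100 brightest genes, 34 were rpl and 19 were rps genes, which encode proteins of the large and small ribosomal subunit, 13 were col collagens, 13 were msp genes and 3 were vit genes. These 100 genes held 19.1%, 19.8% and 19.9% of the summed gene signal in arrays 1, 2 and 3. Of the 100, 78 were read by probe sets whose suffix marks sequence shared with other transcripts, so a signal there may belong to several members of a family. None of the 100 differed by 2-fold or more between the highest and the lowest array, where 7.30% of genes in the brightest decile did. The median difference of the 100 was 1.11-fold.

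The collagen gene col-93 gave 40346, 41775 and 43781 in arrays 1, 2 and 3 (mean 41967 ± 1725, SD, n = 3), and the sperm gene msp-55 gave 40150.2, 44879.7 and 40498 (41843 ± 2636). The major sperm proteins form the cytoskeleton that moves nematode sperm. dpy-13, a collagen gene whose loss shortens the body, gave 43703, 41809.5 and 35910.5. The other bright cuticle genes by the naming rule were col-119 with 36309, 36315 and 32389, col-125 with 30236, 35648 and 39498, and sqt-3, an essential collagen, with 33939.6, 29572 and 32204. In each of these 6 genes the arrays lay within 1.31-fold of each other. The yolk gene vit-5 gave 35239.7, 33296 and 30527, and asp-1, an intestinal aspartyl protease gene, gave 30096, 31254 and 31277. Among the translation genes, rps-3A of the small subunit gave 31366, 32197 and 34176, and eef-1A.1, the elongation factor that brings tRNA to the ribosome, gave 29658, 31648 and 29246. Y59H11AM.1, for which the files give only a sequence name, gave 38866, 44079.5 and 37209.

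**Figure D1:**
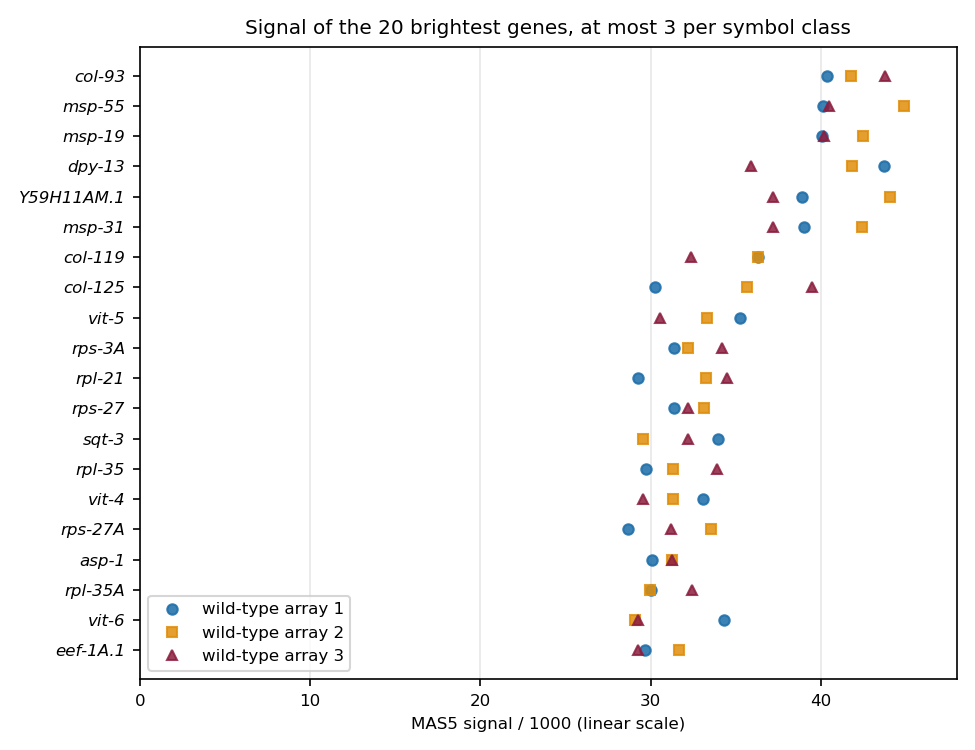
MAS5 signal divided by 1000, on a linear axis from 0, of the 20 brightest genes of the wild-type worms with at most 3 of a symbol class. Each symbol is 1 of the 3 wild-type arrays, and for col-93, at the top, the 3 arrays lie between 40346 and 43781.

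Gene families, taken as genes with the same symbol stem and at least 10 members, spanned the whole range of signals. The families with the highest median percentile were rps (99.6, 30 genes), rpl (99.6, 45 genes) and msp (99.5, 23 genes), followed by cox of the respiratory chain (98.0, 13 genes), lec, which encodes galectins (97.1, 12 genes), and vha of the vacuolar proton pump (97.1, 18 genes). The 1260 chemoreceptor genes of the sr families, which are mostly transcribed in few sensory neurons, had a median percentile of 15.6, and 18 of them reached the filter. The brightest was srv-1, with 729, 515 and 644 in arrays 1, 2 and 3. The 6730 genes known only by a sequence name had a median percentile of 45.5.

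Of the machinery that all cells use, all lists but the histones had median percentiles of 93.4 or more in the wild-type worms. Of 75 cytosolic ribosomal protein genes 74 reached the filter, with a median percentile of 99.6, and the exception was rpl-42, with 46.1, 53.3 and 28.8. Array 3 was the highest for 53 of the 74, where it was for 32.8% of all genes. The shift was small: the median log2 signal minus the gene's own mean was -0.06, 0.01 and 0.06 in arrays 1, 2 and 3. The respiratory chain and ATP synthase list had a median percentile of 97.1 (37 of 38 genes at or above the filter), the proteasome 95 (33 of 33), the vacuolar ATPase 97.1 (18 of 18), the translation factors 95.5 (23 of 23) and the cytoskeleton 98.0 (11 of 11). In the 18 genes of glycolysis and gluconeogenesis the median was 93.4, led by the glyceraldehyde-3-phosphate dehydrogenase gene gpd-2 with 14974, 14222 and 17541. Of the genes of these 7 lists at or above the filter, 0 spanned 2-fold or more over the 3 arrays, while 1116 of all 10400 genes did (10.7%). The list of core and linker histones had a median percentile of 79.0 with 31 of 34 genes at or above the filter. Of the 31 genes 3 spanned 2-fold or more, near the 10.7% of all genes. Of the 8 protein genes of the mitochondrial genome on the array, chosen for description after their values were seen, ND4, a subunit of complex I, gave 15999.7, 17156 and 16507, while ND5, another subunit, gave 123, 268 and 200.2.

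Body wall muscle and intestine were the tissue programs with the highest median percentiles. All 28 body wall muscle genes listed were at or above the filter, with a median percentile of 94.2. The myosin light chain gene mlc-2 gave 26462, 26490.4 and 29987, the heavy chain gene unc-54 gave 10499, 10405 and 16062, and the paramyosin gene unc-15 gave 15559, 16532 and 19838. In all 3 of these genes array 3 was the highest. hlh-1, the muscle transcription factor gene, was the dimmest of the list at 57.7, 76.0 and 66.4 (mean 66.7 ± 9.2, SD, n = 3). The 21 intestinal genes were all at or above the filter with a median percentile of 96.9. The intestinal actin gene act-5 gave 15770.0, 14894 and 13404, the metallothionein gene mtl-2 gave 14246, 15016 and 10295, and elt-2, the transcription factor gene of the intestine, gave 393, 535 and 225. Array 3 was the lowest for these 3 genes and for 13 of all 21, where it was for 40.5% of all genes. Other members differed: ges-1 and cpr-1 were lowest in array 2, and asp-1 and ftn-1 in array 1.

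The epidermis and pharynx lists lay lower in the order of signals. The 19 epidermal and seam genes had a median percentile of 81.1 and all reached the filter; the epidermal transcription factor gene lin-26 gave 1281, 1459 and 1433, and the seam gene egl-18 was the dimmest with 43.2, 114 and 79.0. Of 19 pharyngeal genes 17 reached the filter, where 60.8% of all genes did, with a median percentile of 52. The pharyngeal myosin gene myo-2 gave 122, 248 and 422 and the related myo-1 gave 585, 937 and 1810.0. ceh-22, a transcription factor gene of pharyngeal muscle, stayed below the filter with 14.7, 9.3 and 43.5.

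Neuronal genes covered a wide range of signals. Of 20 pan-neuronal genes 17 reached the filter, where 60.8% of all genes did, with a median percentile of 58.3. The synaptobrevin gene snb-1 gave 2358, 2806 and 2337, and rab-3, which encodes a synaptic vesicle GTPase, gave 467, 452 and 521. rgef-1, often used as a neuronal marker, stayed below the filter with 25.2, 23.1 and 20.6. Of 16 genes of neurotransmitter identity 9 reached the filter (median percentile 41.4), of 9 touch neuron genes 5 did (39.3), of 9 glial genes 5 did (45.6), and of 20 genes of sensory cilia 4 did (25.8). The shares of neurotransmitter, touch neuron and glial genes lay near the 60.8% of all genes, and that of the cilia genes lay below it. tbh-1, the octopamine synthesis gene that the gonad sheath also transcribes, gave 1954, 1432 and 912. The tubulin gene mec-7 of the touch neurons gave 1092, 1334 and 1175, while mec-4, a channel subunit of the same neurons, gave 75.5, 35.4 and 56.6.

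Genes of the vulva, uterus, somatic gonad and excretory system gave moderate signals. Of 18 genes of vulva and uterus 13 were at or above the filter, where 60.8% of all genes were, with a median percentile of 47.5. Of the 13 genes 0 spanned 2-fold or more, where 10.7% of all genes did. fos-1, which the anchor cell needs for invasion, gave 396, 359.8 and 375, and the beta-catenin gene bar-1 gave 355, 378 and 373. egl-17, the fibroblast growth factor gene of vulval cells, gave 30.4, 37.4 and 66.4, and lag-2, a Notch ligand gene, gave 5.7, 1.9 and 14.7. The sheath and spermatheca of the gonad had a median percentile of 68.3, with all 11 genes at or above the filter, and the filamin gene fln-1 gave 2509, 2498 and 3483. The excretory system had a median of 50.2, with 9 of 10 genes reaching the filter, and the aquaporin gene aqp-8 gave 651, 377 and 286.

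Germline programs were present throughout, from germ cell maintenance to oocytes and sperm. All 24 genes of germline RNA regulation and P granules, the RNA-rich bodies of germ cells, were at or above the filter, with a median percentile of 87.7. The P granule helicase gene glh-1 gave 7152, 5267 and 6382 and pgl-1, which encodes a structural P granule protein, gave 2303, 2633 and 1991. Of 21 genes of meiotic chromosomes 20 reached the filter, with a median percentile of 68.8, and him-3, which encodes a protein of the chromosome axis, gave 2863, 2512 and 2255. All 22 genes of oocytes and eggshell did, with a median percentile of 90. perm-4, a gene of the permeability barrier of the egg, gave 15368, 15136 and 10207, and cey-2, which encodes a Y-box RNA-binding protein of the germline, gave 7649.9, 7257 and 5513.

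Sperm transcripts were bright as well. Of 27 spermatogenesis genes outside the major sperm proteins 26 reached the filter, with a median percentile of 73.1, and msd-2 was the brightest with 13269, 13426 and 10383. Of the 27, 8 were read by probe sets of shared sequence, msd-2 among them. The list median was 66.6 without such probe sets and 64.8 with the mean of a gene's probe sets. spe-9, a sperm surface protein gene needed at fertilization, gave 150.1, 140.0 and 122. All 23 msp genes lay at or above the 97.8 percentile. Each of the 23 was read by a probe set of shared sequence, so the level of a single msp gene is uncertain. msp-32 was the only msp gene to span 2-fold, with 11319.8, 5111 and 6086.

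**Figure D2:**
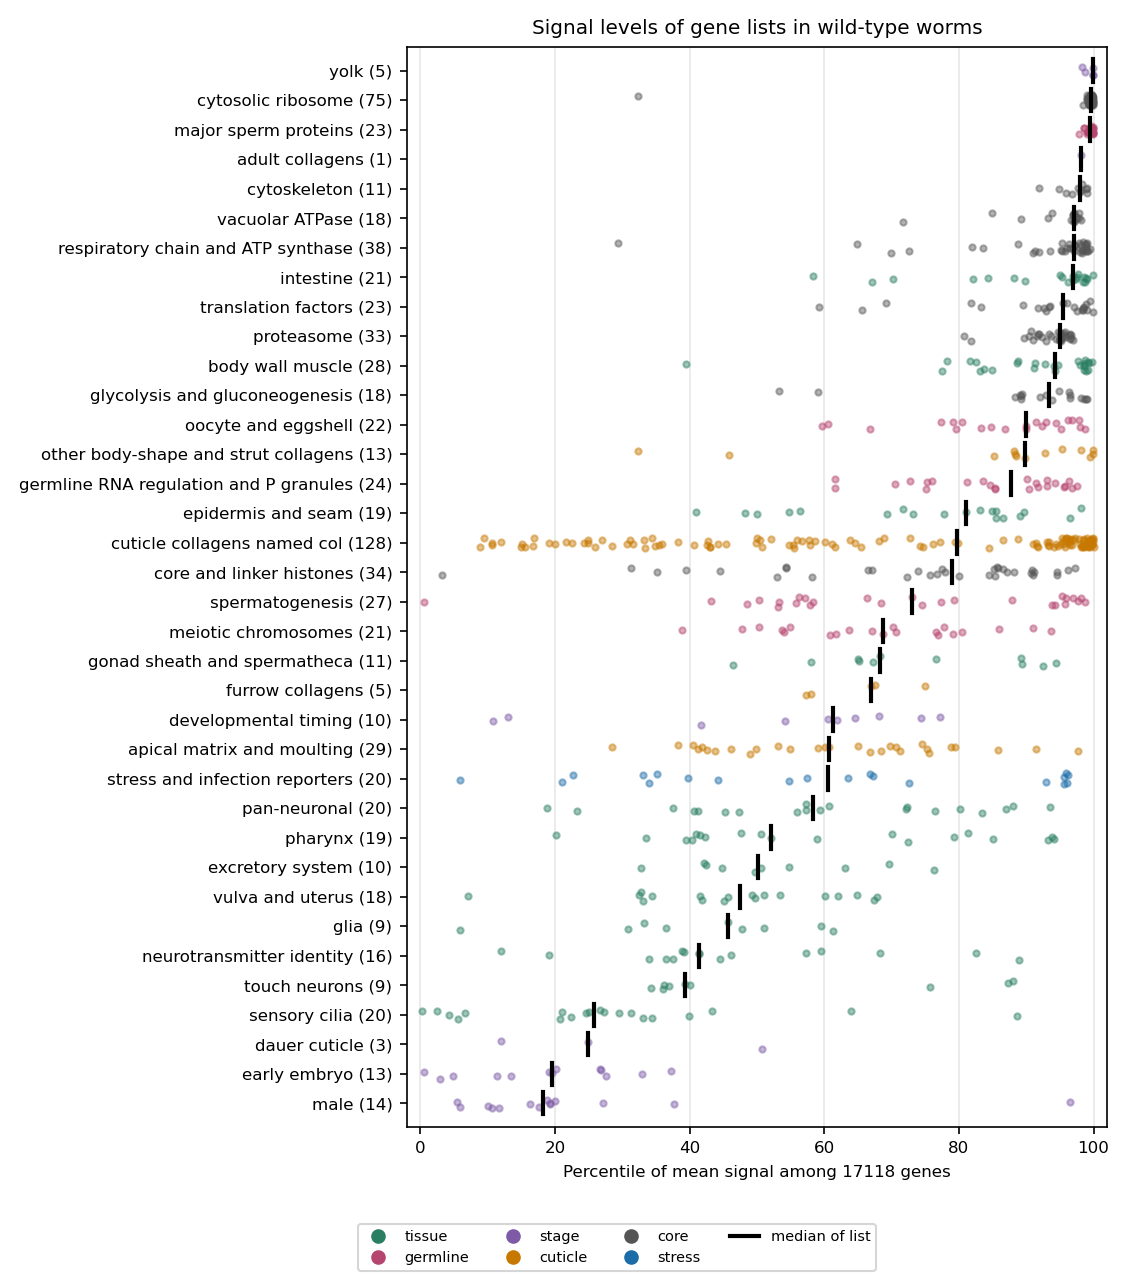
Percentile of the mean signal among 17118 genes for the members of 36 gene lists in wild-type worms. Each point is 1 gene, black bars are list medians and the numbers in brackets count measured members; yolk genes lie highest, at a median of 99.9, and the male list lowest, at 18.2.

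Genes that mark stages were set against the label of L4. The yolk protein genes vit-1, vit-2, vit-4, vit-5 and vit-6 all lay at or above the 98.3 percentile. vit-4 gave 33091, 31317 and 29559, vit-6 gave 34304, 29082 and 29252, vit-1 gave 21259, 10218 and 9061, and vit-2 gave 12705, 8067 and 8328. Array 1 was the highest for all 5 vit genes. col-19, a collagen gene known for its transcription in adults, gave 9669.7, 8544 and 6163, at the 98.1 percentile. These genes and the oocyte and eggshell genes are known from late L4 and adult hermaphrodites, so the worms are called here only labelled L4, and whether the cultures held young adults was not tested. None of the 13 genes of early embryonic transcription reached the filter, where 60.8% of all genes did. The brightest of them was end-1, an endoderm specification gene of the embryo, with 86.6, 53.1 and 40.2.

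The listed genes of the dauer stage and of males were mostly dim. In the dauer cuticle list cut-1 gave 7.2, 15.3 and 6.5, col-40 gave 21.5, 17 and 44.3, and col-2 alone reached the filter with 181, 93.9 and 159. Of 14 male genes 1 reached the filter, where 60.8% of all genes did. It was swm-1, a secreted protease inhibitor gene, with 3529.8, 3844 and 6086, while pkd-2, a polycystin gene of male sensory neurons, gave 3.6, 18.5 and 6.2. Among the heterochronic genes, which time larval development, lin-14, known from the earliest larvae, stayed below the filter with 3.0, 20.5 and 15.6. lin-28 gave 317, 264 and 256, lin-46 gave 64.6, 102 and 69.4, lin-41 gave 269, 324 and 196, and hbl-1 gave 441, 350.3 and 361. The nuclear receptor gene daf-12 gave 549.7, 481 and 568, and kin-20, which encodes a casein kinase, gave 578, 504 and 829.7. lin-29, the transcription factor gene of the switch from larva to adult, gave 251, 269 and 494, and lin-42, the period homologue that oscillates with the moults, gave 125, 146 and 295. For these last 2 genes array 3 was the highest and array 1 the lowest. mab-10, a cofactor gene of lin-29, stayed below the filter with 2.4, 42.4 and 5.0.

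Cuticle collagens named col filled the whole range of signals. Of 128 genes 98 reached the filter, where 60.8% of all genes did. The median percentile of the 128 was 79.7, and they reached from the 8.9 percentile to the top of the order. Of the 128, 50 were read by probe sets of shared sequence. The 5 furrow collagens, which form the annular furrows of the cuticle, had a median percentile of 67. The other body-shape and strut collagens had a median of 89.8, with 12 of 13 genes at or above the filter, and dpy-14 was the exception with 44.7, 45.8 and 34.3. The list of apical matrix and moulting genes, which make and shed the cuticle, had a median of 60.7, with 27 of 29 genes at or above the filter.

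Stress and infection reporters covered a wide range of signals, from the 5.9 to the 96.2 percentile. The chaperone genes hsp-6 and hsp-60 of mitochondria gave 3998, 3512 and 4702 and 3166, 4036 and 4158, and hsp-4, the BiP gene of the endoplasmic reticulum, gave 4058, 3153 and 3628. The small heat shock genes hsp-16.2 and hsp-16.41 stayed below the filter, at 52.6, 40.9 and 58.5 and at 75.9, 31.2 and 42. Of the 20 genes of the list 14 reached the filter, where 60.8% of all genes did. Infection-responsive genes were among those that differed between arrays: irg-5 gave 5735, 2070.2 and 5002, irg-1 gave 350.3, 639 and 203, and irg-2 gave 427, 428 and 153. The low array was array 2 for irg-5 and array 3 for irg-1 and irg-2. Of the 14 genes these 3 spanned 2-fold or more, where 10.7% of all genes did.

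Signals differed by chromosome. The median percentile was 61.6 for genes on chromosome I, 49.9 on II, 62.8 on III, 56.7 on IV, 34.0 on V and 45.3 on X. On chromosome V 44.3% of genes reached the filter, against 75% on III and 58.9% on X. Chromosome V carries many chemoreceptor genes. When all 1260 were left out, a setting chosen after seeing the data, its median percentile was 43.5, still the lowest of all chromosomes. That of X was then 45.8, those of I to IV lay between 52.7 and 63.2, and that of all remaining genes was 53.7. Of the 117 genes of the germline lists 1 lay on X (0.855%), while 2350 of 17074 genes with a chromosome did (13.8%), and of the 28 body wall muscle genes 8 did (28.6%). These shares are descriptions of chosen lists.

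The 3 wild-type arrays agreed closely for most genes. Over the 10400 genes at or above the filter, the correlation of log2 signals across genes was 0.973 between arrays 1 and 2, 0.965 between 2 and 3, and 0.953 between 1 and 3. The median gene differed by 1.17-fold, 1.21-fold and 1.2-fold in these pairs, and 365 (3.51%), 516 (4.96%) and 761 genes (7.32%) differed by 2-fold or more. Genes are not independent replicates, and the correlations are given without a test. Over all 3 arrays, 1116 genes (10.7%) spanned 2-fold or more, and leaving out array 1, 2 or 3 left 512, 741 or 343 such genes. By these correlations and 2-fold counts arrays 1 and 3 were the pair farthest apart, while by the median gene arrays 2 and 3 were, and arrays 1 and 2 were the closest by all 3 measures.

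The spread between wild-type arrays depended on signal. All 17118 genes were put in 10 deciles by mean log2 signal. In decile 1, the dimmest, which ended at a signal of 7.4, 74.1% of genes spanned 2-fold or more, and in decile 2 88.9% did. The share was 58.3% in decile 3, 31.7% in decile 4, 20.5% in decile 5 and 12.3% in decile 6. It lay between 6.54% and 9.88% in the 4 brightest deciles, and the median span was 5.0-fold in decile 2 and 1.22-fold in decile 10. Decile 6 ended at a signal of 249.

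**Figure D3:**
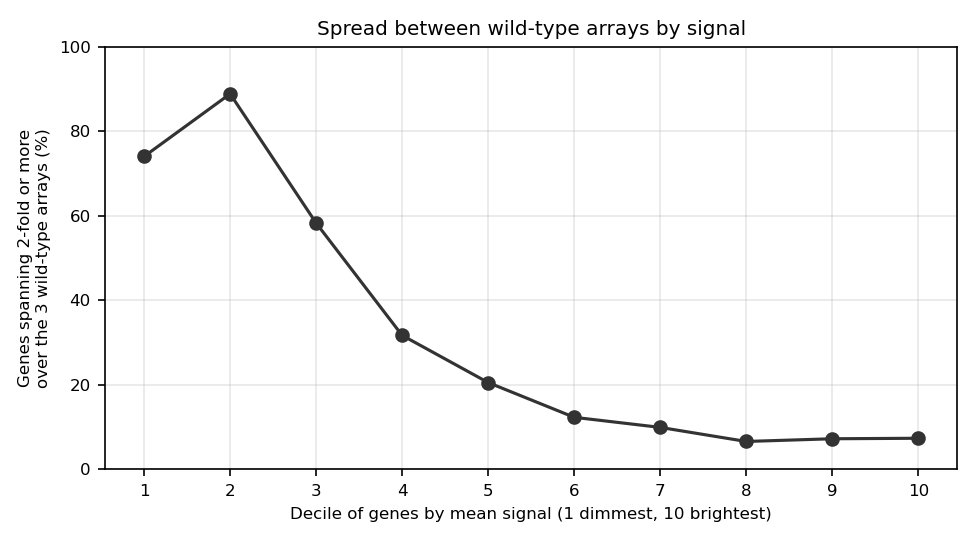
Percent of genes whose signal spanned 2-fold or more over the 3 wild-type arrays (vertical axis), in deciles of 17118 genes ordered by mean signal (horizontal axis, dimmest to brightest). The share is 74.1% and 88.9% in the 2 dimmest deciles and at most 9.88% in the 4 brightest.

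Arrays 1 and 3 stood apart in opposite directions. Of the 10400 genes, array 1 alone lay 2-fold or more below both other arrays for 193 (1.86%) and above both for 26 (0.25%). Array 3 alone lay above both for 170 (1.63%) and below both for 83 (0.798%), and array 2 alone lay below both for 41 (0.394%) and above both for 13 (0.125%). Array 1 was the lowest and array 3 the highest for 1854 genes (17.8%), array 3 was the highest for 3407 (32.8%) and the lowest for 4210 (40.5%). Among the 1116 genes that spanned 2-fold or more, array 1 was the lowest and array 3 the highest in 485 (43.5%), and array 3 was the lowest in 325 (29.1%). The median deviation of all 10400 genes from their own mean was 0.02, 0.01 and -0.02 on the log2 scale in arrays 1, 2 and 3. The arrays had been scaled to a common trimmed mean beforehand.

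Body-shape collagens, furrow collagens, moulting genes and pharyngeal genes were low in array 1 and high in array 3. Of the 12 other body-shape and strut collagens at or above the filter 8 spanned 2-fold or more, where 10.7% of all genes did, and in all 8 array 1 was the lowest and array 3 the highest. The median deviation of these 12 genes was -0.87, 0.20 and 0.62 on the log2 scale in arrays 1, 2 and 3. bli-1, a collagen gene of the struts in the adult cuticle, gave 523, 925 and 2143, which is 4.10-fold from lowest to highest. rol-6 and sqt-1, collagen genes whose mutants roll, gave 668, 1582 and 2214 and 1079, 2520.3 and 3847. dpy-5 gave 4296, 9846 and 14931 and lon-3 gave 599, 1672 and 2134. dpy-13 and sqt-3, the brightest of the list, did not follow: array 1 gave their highest signal. Without array 1, 1 of the 12 genes spanned 2-fold, without array 2 8 did, and without array 3 5 did.

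The furrow collagens had median deviations of -0.60, 0.17 and 0.45. dpy-7 gave 238, 407 and 483, dpy-8 gave 204, 496 and 505, dpy-9 gave 144, 250.2 and 305, and dpy-3 gave 453, 449 and 821. dpy-2 differed little, with 197, 227 and 211. Of the 5 genes 3 spanned 2-fold or more, where 10.7% of all genes did, each with array 1 lowest and array 3 highest.

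The apical matrix and moulting genes had median deviations of -0.72, 0.12 and 0.37, and 16 of 27 spanned 2-fold or more, where 10.7% of all genes did. In 12 of the 16 array 1 was the lowest and array 3 the highest. acn-1, an angiotensin-converting enzyme homologue needed for moulting, gave 300.5, 775 and 1566, a 5.21-fold span. mlt-8, a moulting gene, gave 519, 1149.5 and 1981, the protease inhibitor gene bli-5 gave 79.2, 152 and 370.5, and the astacin protease gene nas-6 gave 52.4, 85.3 and 245. noah-1, which encodes a matrix protein made before each new cuticle, gave 1082, 2089 and 2640.2. Array 1 was the lowest and array 3 the highest in all 5 of these genes. let-767, a steroid dehydrogenase homologue and the brightest of the list, gave 6900.2, 7177 and 5497. Without array 1, 3 genes of the list spanned 2-fold, against 12 without array 2 and 11 without array 3.

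The col genes moved in both directions. Of the 98 at or above the filter 38 spanned 2-fold or more (38.8%, against 10.7% of all genes), array 1 being the lowest and array 3 the highest in 29 and array 3 the lowest in 8. col-104 gave 1461, 4481 and 10929.6, col-71 gave 1925, 6545 and 13762, col-156 gave 742, 1769 and 4725, and col-58 gave 74.5, 163 and 546. Their spans were 7.48-fold, 7.15-fold, 6.37-fold and 7.32-fold. col-101 ran the other way, with 3394, 2182 and 906. Without array 1 20 col genes spanned 2-fold, without array 2 38 did, and without array 3 16 did.

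All 17 pharyngeal genes at or above the filter were highest in array 3, where 32.8% of all genes were, and 13 of the 17 spanned 2-fold or more, where 10.7% did. Their median deviations were -0.56, -0.18 and 0.60. abu-14, one of the genes that build the cuticle lining the pharynx, gave 1481, 2002 and 5923, abu-8 gave 1372, 1708 and 5335, and abu-6 gave 1809, 1845 and 5756. In these 3 genes array 3 alone stood apart, and arrays 1 and 2 lay within 1.5-fold of each other. myo-2, described above, differed between all 3 arrays, and its span was 3.45-fold. The family of 10 abu genes at or above the filter overlaps this list and includes abu-6, abu-8 and abu-14. All 10 spanned 2-fold or more, where 10.7% of all genes did. abu-6 and abu-8 were read by probe sets of shared sequence. Without array 3, 1 of the 17 pharyngeal genes spanned 2-fold, against 6 without array 1 and 11 without array 2.

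Body wall muscle genes shifted in the same direction by less. In 27 of the 28 genes array 3 was the highest, as it was for 32.8% of all genes, and the median deviations were -0.14, -0.17 and 0.33. The giant sarcomere protein genes ttn-1, unc-22 and unc-89 gave 646, 663 and 1234, then 491, 568 and 911, and then 2399, 2104 and 3995. unc-45, the myosin chaperone gene, gave 528, 543 and 1016. The myosin gene myo-3, with 665, 837 and 1375, was the only muscle gene to span 2-fold, at 2.07-fold, and 0 did when array 1 or array 3 was left out. Without array 3 the median deviations of the remaining arrays differed by 0.000829 on the log2 scale.

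Oocyte and eggshell genes ran the other way. Array 3 was the lowest for all 22, where it was for 40.5% of all genes, and 10 of the 22 spanned 2-fold or more, where 10.7% did. Their median deviations were 0.16, 0.43 and -0.54. meg-1, a germ granule gene, gave 488, 719 and 129, a 5.57-fold span. puf-5, an RNA-binding regulator of oocytes, gave 1285, 1989.7 and 594, the egg surface receptor gene egg-1 gave 1567, 2481 and 894, and the oocyte maturation gene oma-2 gave 1697, 2384 and 897. Array 2 was the highest in all 4. perm-2, a gene of the egg's permeability barrier, differed in having its highest signal in array 1, with 11501, 6561 and 5413. Of the 22 genes 0 spanned 2-fold without array 3, 4 did without array 2 and 9 did without array 1.

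Several other lists were lowest in array 3 by small amounts. In the meiotic list array 3 was the lowest for 18 of 20 genes, in germline RNA regulation for 14 of 24, among the msp genes for 17 of 23, in the vacuolar ATPase for 17 of 18 and in the intestine for 13 of 21, against 40.5% of all genes. Among the spermatogenesis genes array 3 was the lowest for 13 of 26, little above that share. It was so for 16 of 33 proteasome genes and 13 of 31 histone genes. In the first 5 of these lists the median deviations in array 3 lay between -0.17 and -0.10. Spans of 2-fold or more were few: cgh-1, a germline helicase gene, gave 5057, 3988 and 2499, and cosa-1, a crossover gene, gave 122, 182 and 68.4. The spermatogenesis genes had median deviations of 0.21, -0.08 and -0.15. spe-38, a sperm fertilization gene, gave 171, 43.0 and 85.2 and was lowest in array 2.

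**Figure D4:**
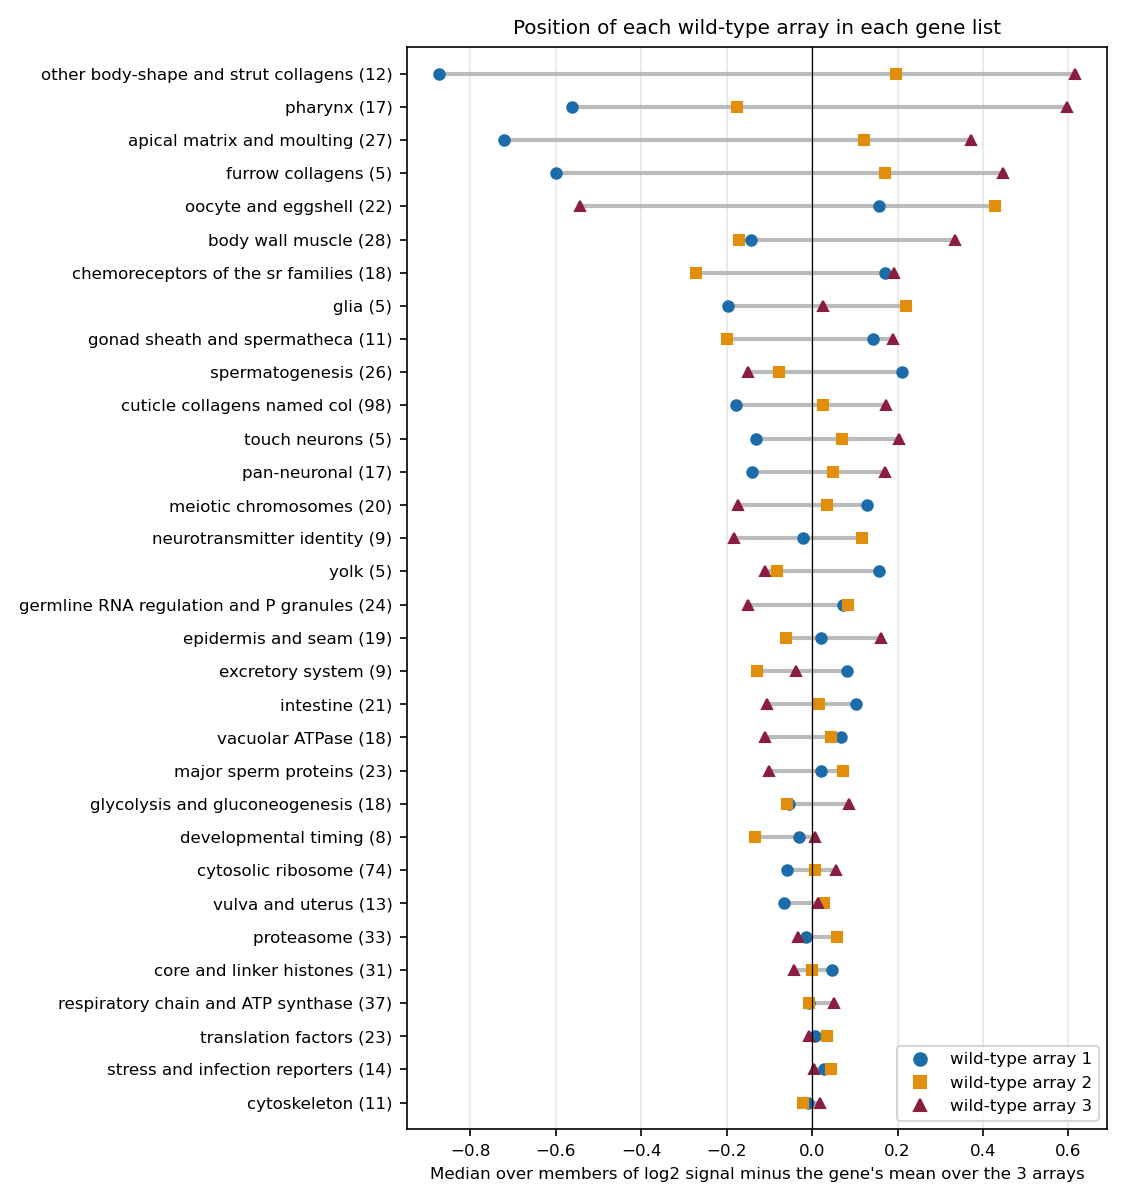
Median over the members of each list of the log2 signal minus that gene's own mean over the 3 wild-type arrays, for the lists with at least 5 genes at or above the filter (number of genes in brackets). Body-shape collagens range from -0.87 in array 1 to 0.62 in array 3, oocyte and eggshell genes from 0.43 in array 2 to -0.54 in array 3, and translation factors and cytoskeleton genes lie near 0 in all 3.

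**Figure D5:**
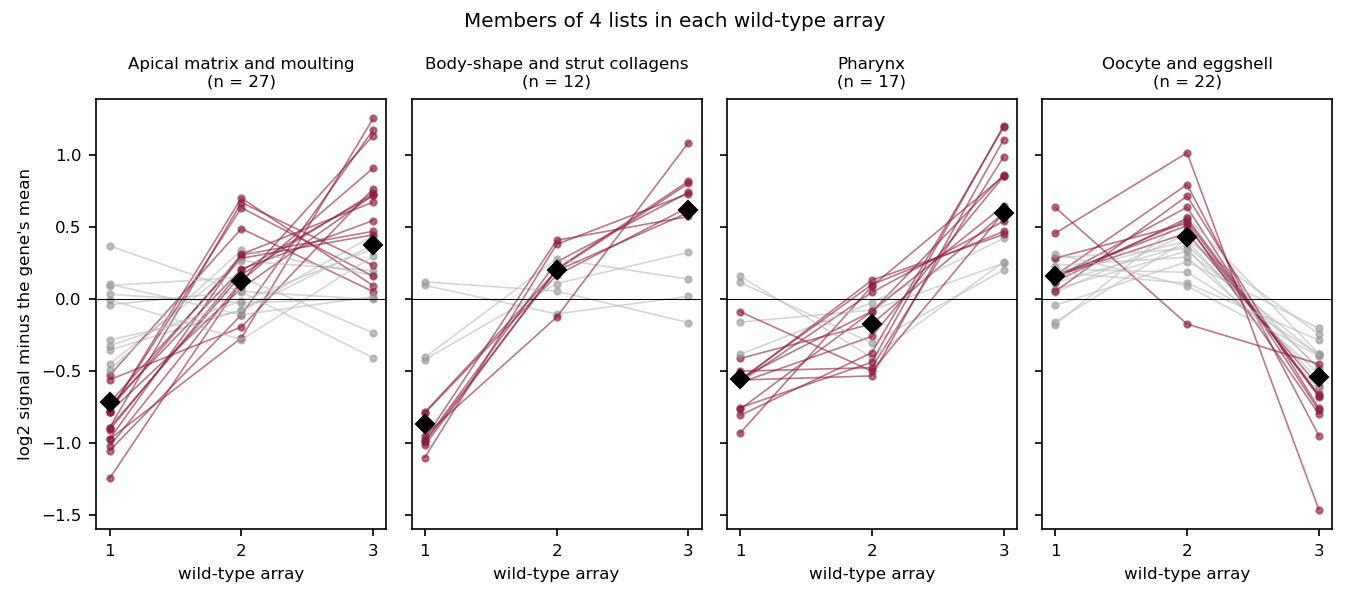
Log2 signal minus the gene's mean over the 3 wild-type arrays, for each gene at or above the filter in 4 lists. Thin lines join the values of 1 gene, coloured where it spans 2-fold or more, diamonds are list medians, and the array numbers are names with no order; all 17 pharyngeal genes are highest and all 22 oocyte and eggshell genes lowest in array 3.

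The 12 genes with the largest ranges at or above the filter, at most 2 of a symbol class, ran mostly from a low in array 1 to a high in array 3. R12A1.3, which has no other name in the files, gave 19.1, 116 and 373, a 19.5-fold span, and C06A1.6 gave 36.1, 76.5 and 463. The disordered pharyngeal protein genes idpp-7 and idpp-10 gave 59.0, 193 and 625 and 22.2, 133 and 190.2. pqn-26 and pqn-13, of a family of proteins rich in glutamine and asparagine, gave 41.7, 164 and 466 and 41.4, 122 and 358. appg-1 gave 30.8, 103 and 295, chtb-1 gave 51.3, 92.4 and 485, and cpg-19 gave 62.8, 158 and 503. acdh-2, an acyl-CoA dehydrogenase gene, gave 42, 171 and 469. In all 10 of these genes array 1 was the lowest and array 3 the highest. Array 1 lay below the filter signal of 65.7 in all 10. They passed the filter by their higher signals in the other arrays, so the size of their spans rests on dim values. The lectin gene clec-3, with 30.4, 322 and 101, and the aspartyl protease gene asp-17, with 106, 633 and 72.7, were highest in array 2. The array 1 signal of clec-3 was also below 65.7. All 12 had mean signals of at most 292. By mean log2 signal they lay in deciles 5 and 6, where 20.5% and 12.3% of all genes spanned 2-fold or more. The median span of all genes was 1.51-fold in decile 5 and 1.42-fold in decile 6.

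At the other end, 6 genes of the brightest decile had the smallest ranges, each within 1.01-fold. ucr-2.1, a subunit gene of respiratory complex III, gave 4352, 4352 and 4398. ndub-3 of complex I gave 4669, 4702 and 4699, iff-2, a translation factor gene, gave 11399, 11359 and 11247, and cni-1, a cornichon homologue, gave 1689.7, 1713 and 1709. C17F4.7 and Y7A5A.1, with sequence names only, gave 18289, 18141 and 18274 and 2018, 2035 and 2036. These ranges were the smallest of many and were picked for being so.

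Control probe sets also differed between the wild-type arrays. The ratio of the 3' to the 5' probe set, which increases when RNA is broken or copied in part, was 1.55, 1.64 and 1.70 for the actin control in arrays 1, 2 and 3, and 1.15, 1.07 and 1.40 for the Gapdh control. It was 4.94, 4.21 and 5.33 for the catalase control and 22.6, 16.45 and 20.8 for the ubiquitin control. The 24 probe sets of the Bacillus control RNAs dap, lys, phe and thr were all highest in array 2, at a median 2.13-fold over array 1, while array 3 was 1.37-fold over array 1. The 18 probe sets of the hybridization controls differed by a median of 1.07-fold and 0.986-fold from array 1. Of the 4 ratios 1, that of actin, was lowest in array 1 and highest in array 3, as were many cuticle and pharyngeal genes; 3 were highest in array 3, and the ubiquitin ratio was highest in array 1. The part of RNA quality in the differences between arrays was not tested.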

How the data were processed

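The deposited table holds 1 linear intensity value per probe set and array; per the submitters' processing notes the authors used MAS5 and the Affymetrix Expression Console, with versions not given in the sources used here. Python 3.11.15 with pandas 2.3.3 took log2 of the signals of the 3 wild-type arrays without adding a constant or normalizing further. Control probe sets (77) and those annotated to several genes (887) or none (895) were left out; 20701 gene identifiers matched the gene table. Genes were filtered at the 40th percentile of mean log2 signal. Spread is the highest over the lowest of the 3 arrays, with 2-fold as the limit, and a deviation is a gene's log2 signal minus its own mean. No test was fitted. The spread counts were tried on simulated data with the same noise for every gene. In the real arrays the spread depended on signal, so the simulation checked the counting only. The members, lists and limits were chosen with earlier results of these data known.

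Named genes were zip-3; the 20 brightest with at most 3 of a symbol class; from each list the first 2, up to 4 brightest and 2 dimmest; the 12 of largest range, at most 2 of a class, and up to 4 per list; the 6 steadiest of the brightest decile; and whole stage and furrow lists. Genes with sequence names counted as 1 class. Alternatives were quantile normalization, median centring, the mean of a gene's probe sets, no probe sets of shared sequence, other filters, a constant of 16, a 1.5-fold limit and leaving out each array.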

Additional observations from a re-analysis of the deposited data

How the results depend on the processing

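The lowest correlation between arrays, 0.953, was 0.941 with no filter. The 1116 genes spanning 2-fold became 5420 with no filter, 555 at the 60th percentile and 3376 at 1.5-fold. At 1.5-fold 13 muscle and 20 oocyte and eggshell genes spanned the limit; muscle counted 2 after quantile normalization, 0 after median centring and 4 with the mean of a gene's probe sets. At the 60th percentile pharynx counted 7 and apical matrix 9 genes; with no filter col genes counted 59. Without probe sets of shared sequence pharynx counted 6 and col genes 24, and 32 of the 100 brightest genes were the same. Leaving out the chemoreceptors put the median percentile of chromosome V at 43.5, where that of all remaining genes was 53.7.

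Leaving out 1 array gave a lowest correlation of 0.955 to 0.973 and 343 to 741 spanning genes; a span over fewer arrays is smaller by construction. The list medians then differed between arrays by 0.000829 to 0.527 on the log2 scale for muscle, 0.32 to 1.16 for pharynx, 0.30 to 0.96 for oocyte and eggshell, 0.38 to 1.49 for body-shape collagens, 0.34 to 0.91 for apical matrix and 0.096 to 0.36 for col genes. Counts of spanning genes ran from 0 to 1, 1 to 11, 0 to 9, 1 to 8, 3 to 12 and 16 to 38 in these lists.

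Of 259 recomputed list percentiles 214 stayed within the spread between arrays and 3 moved by 10 points or more: developmental timing to 42.3 with the mean of probe sets, and without shared sequence the msp list to 41.8 (1 of 23 genes measured) and col genes to 65.7. No paired analysis was possible because the results come from 1 genotype and no test. Without detection calls or background values, signals below the filter have no firm order.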
